A study of Mus musculus with 28 samples.

Results

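Leukaemic cells taken by the surface markers of granulocyte-macrophage progenitors, called L-GMP by the submitters, were set against the fraction of normal mouse bone marrow enriched for haematopoietic stem cells (HSC), gene by gene across the whole array. The members were chosen by sample title. The L-GMP group held the 6 arrays titled L-GMP and the HSC group the 5 arrays titled HSC enriched, which made 11 of the 28 arrays of the series. The series studied how the fusion oncogene MLL-AF9 turns committed progenitors into leukaemia stem cells. Each L-GMP array measured bone marrow cells described as leukaemic and sorted as lineage negative, Sca negative, Kit positive, Fc receptor positive and CD34 positive. Each HSC array measured normal bone marrow cells sorted as lineage negative, Sca positive and Kit positive. The labels give no strain, age, promoter or clone for either group, and do not say whether the arrays of a group came from different mice, so the p-values below describe the spread between samples, and that spread may be technical. A further 11 arrays of normal progenitors were processed with these 11 and entered the same fit, which then held 22 arrays. Among them, the 4 arrays of normal granulocyte-macrophage progenitors (GMP), sorted with the same lineage, Sca, Kit and Fc receptor signs and high CD34, are quoted where they help to place a level.

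Haematopoietic stem cells keep the capacity to renew themselves and to give rise to all blood lineages. They give rise to progenitors of narrower fate, and GMP form granulocytes and monocytes by switching on the transcription factors Spi1 and the C/EBP family, and then the genes of the primary granule, whose serine proteases are made in promyelocytes. MLL fusions join the DNA-binding end of the histone methyltransferase KMT2A to a partner such as AF9 (MLLT3), which recruits the elongation machinery, and are known to keep HoxA genes and Meis1 active in cells that would otherwise silence them. The sort fixed the Sca difference beforehand, since L-GMP were Sca negative and HSC Sca positive. L-GMP were also sorted as Fc receptor positive, while the HSC labels name no Fc receptor gate. A leukaemic progenitor and a normal stem cell therefore differ in lineage stage as well as in disease, and the 2 cannot be told apart in this comparison.

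The values are array intensities after scaling, on the log2 scale, with low values raised to a floor of 5.27. The median of all values lay at 6.75. Where most arrays of the lower group lay at the floor, a fold is a lower bound and is written "at least". Genes were tested with the moderated test of limma, and a gene was called at a Benjamini-Hochberg adjusted p under 0.05 over 8422 genes. Errors are standard errors (SE) on log2 changes, always L-GMP minus HSC, and standard deviations (SD) on levels. Bulk RNA was measured, so fewer cells of a type and less RNA per cell cannot be told apart in any value below. Arrays correlated across genes with r from 0.939 to 0.984 within L-GMP and from 0.937 to 0.983 within HSC. Correlations between an L-GMP and an HSC array ran from 0.759 to 0.824, and between an L-GMP and a normal GMP array from 0.878 to 0.921. Genes are not independent replicates, and these are descriptions. The log2 ratio of 3' to 5' control signal, which falls with better RNA length after amplification, moved with the groups at 2.85 ± 0.08 in L-GMP and 3.09 ± 0.15 in HSC (SD, n = 6 and 5). Its part in the differences was tested only as a covariate of the fit, given in the closing section.

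The HSC arrays differed among themselves in 3 gene groups that later results touch. HSC array 3 was the highest of the 5 in 42 of 61 tested genes of the myeloid lists, with Elane at 9.51 against 7.003, 7.66, 5.27 and 5.93 on arrays 1, 2, 4 and 5. HSC array 4 was highest in 28 of 29 immediate early genes and lowest in 29 of 29 mitosis genes. HSC array 1 stood at the other end, lowest in 28 of those immediate early genes and highest in 26 of those mitosis genes. For the lists of these genes the counts are also given without the array concerned, and why these arrays differ was not tested. Gene lists were used to order the results. They held 769 genes, of which 555 were tested, 123 were below the level filter and 91 had no probe set naming them alone. Each count below is over the tested genes of a list. It is to be read beside the shares of all genes tested, 23.4% called higher in L-GMP and 23.8% called lower.

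Labels were checked against defining markers. The stem cell surface protein Procr was at the floor on each of the 6 L-GMP arrays and at 9.31, 9.28, 8.88, 9.14 and 9.43 on the HSC arrays, so the groups did not meet. The stem cell marker Slamf1 averaged 5.46 ± 0.15 in L-GMP and 6.31 ± 0.13 in HSC, and the stem cell factor Mecom, below the level filter, averaged 5.82 in both groups. Granule protein genes of granulocyte progenitors set L-GMP apart from HSC, with Mpo at 12.20 ± 0.34 in L-GMP and 10.49 ± 0.53 in HSC. They were not particular to L-GMP, since Mpo lay between 12.91 and 12.95 in normal GMP. The erythroid factor Klf1 lay at the floor on every array of both groups, and the erythropoietin receptor Epor averaged 5.40 in L-GMP and 5.56 in HSC. Neither label was contradicted.

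Of the 8422 genes tested, 3976 were called, 47.2% of all, by limma. L-GMP were higher in 1968 genes (23.4%) and lower in 2008 (23.8%), and the median change over all genes was 0.00429 on the log2 scale. At least 2-fold differences were called for 514 genes higher in L-GMP (6.10%) and 649 lower (7.71%). Differences of at least 16-fold were called for 28 genes higher and 40 lower. In 2630 called genes the 6 L-GMP arrays all lay on one side of the 5 HSC arrays, where 31.6% of all genes tested had groups that did not overlap. All HSC arrays sat at the floor for 59 of the genes higher in L-GMP, and all L-GMP arrays did for 102 of the genes lower in L-GMP. Of the 4446 genes not called, 4203 had a 95% interval inside a 2-fold change in either direction. In the same fit, L-GMP minus normal GMP called 33.5% of the genes, and normal GMP minus HSC called 41.2%. These comparisons share arrays, so only the values are given side by side.

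**Figure D1:**
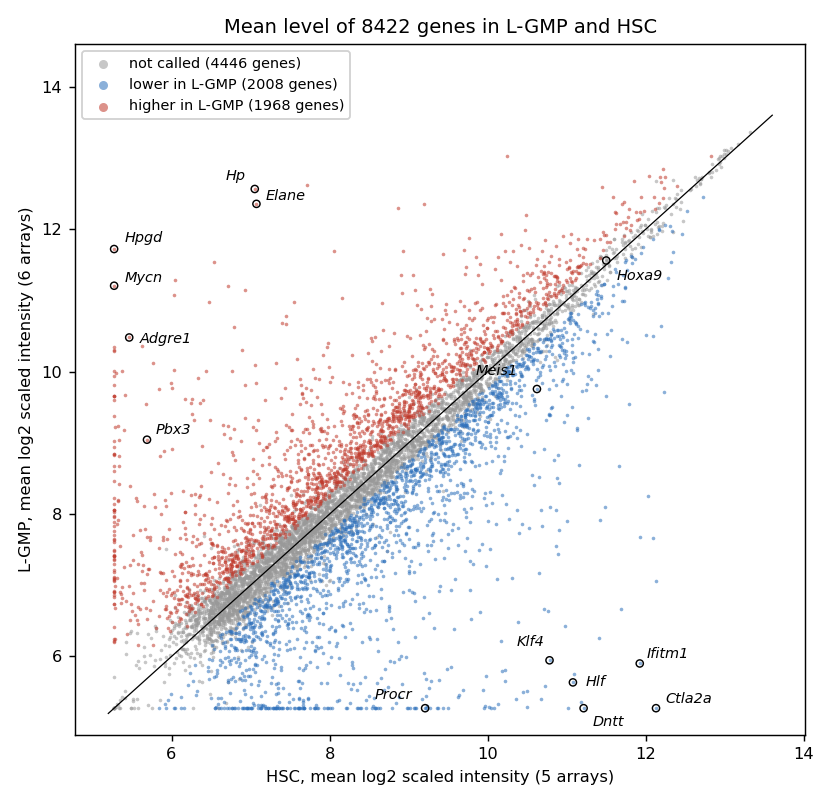
Mean level of each of the 8422 tested genes, with L-GMP (6 arrays) on the vertical and HSC (5 arrays) on the horizontal axis, both as log2 scaled intensity. Red and blue points stand for genes higher and lower in L-GMP, grey points were not called, the black line marks equal levels, and the points along the left and lower edges have 1 group at the floor of 5.27.

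The largest rises in L-GMP included granule and receptor genes of granulocytes and macrophages. Rises and falls were ranked among genes whose L-GMP and HSC arrays did not overlap, so the lack of overlap was fixed by that choice. Haptoglobin (Hp), a haemoglobin-binding protein stored in neutrophil granules, measured between 12.46 and 12.71 with a median of 12.57 on the L-GMP arrays, against 7.26, 7.01, 9.20, 6.52 and 5.27 on HSC arrays 1 to 5. Its log2 change was 5.51 ± 0.45 (adjusted p = 1.6e-09). All L-GMP arrays stood above all HSC arrays, and HSC array 3 was well above the other HSC arrays. Elane, neutrophil elastase, a serine protease of primary granules, lay between 11.69 and 12.84 with a median of 12.42 in L-GMP, against 7.003, 7.66, 9.51, 5.27 and 5.93 in HSC, a change of 5.28 ± 0.50 (adjusted p = 1.3e-08). The same HSC array was again the highest, and the groups did not overlap. Igsf6, a myeloid immunoglobulin-like receptor, was between 11.08 and 11.56 with a median of 11.28 in L-GMP and 5.99, 5.77, 7.91, 5.27 and 5.27 in HSC, again with a high HSC array 3 and no overlap. Its change was 5.25 ± 0.35. Normal GMP arrays were high for all 3 genes. They lay between 10.95 and 11.81 for Hp, 12.36 and 12.89 for Elane, and 10.78 and 11.14 for Igsf6.

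Ly86 (MD-1), which pairs with the Toll-like receptor relative RP105, lay between 10.69 and 11.24 with a median of 11.16 in L-GMP and at 6.37, 5.52, 6.86, 5.77 and 5.65 in HSC (5.04 ± 0.19, adjusted p = 3.7e-15). Adgre1, which encodes a surface antigen of macrophages, lay between 10.07 and 10.77 with a median of 10.51 in L-GMP and at 5.27, 5.27, 6.07, 5.43 and 5.27 in HSC. For that gene 3 of the 5 HSC arrays were at the floor, so the difference was at least 32.3-fold, and normal GMP averaged 7.36, below every L-GMP array. Slpi, a secreted inhibitor of elastase and cathepsin G, was among the steadiest, between 12.46 and 12.85 with a median of 12.61 in L-GMP against 7.56, 7.61, 8.09, 7.66 and 7.63 in HSC (4.92 ± 0.13). The metal-binding protein metallothionein 1 (Mt1) rose by 5.002 ± 0.19 on the log2 scale, and most HSC arrays were at the floor for the dendritic cell lectin Clec4a2, at least 26.4-fold higher, and the clotting protease factor X (F10), at least 25.6-fold higher. Further large rises were the heparan sulphate proteoglycan Gpc1 (at least 25.3-fold), the phosphodiesterase Gdpd3 (at least 24.7-fold), the eosinophil granule protein Prg2 (4.51 ± 0.66), the calcium-dependent lipid-binding annexin Anxa3 (4.49 ± 0.27), the sulphate-donor synthase Papss2 (4.36 ± 0.19) and the autophagy gene Dram1 (at least 19.2-fold). All of these had groups that did not overlap, as the choice required. Normal GMP arrays also lay far above HSC for Ly86 (10.25 to 10.4) and Anxa3 (10.80 to 11.20). They stood well below L-GMP for F10 (7.22 to 7.97) and Gdpd3 (7.33 to 7.63).

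Among the genes at the floor on all 5 HSC arrays, Hpgd had the largest difference. It encodes the 15-hydroxyprostaglandin dehydrogenase that inactivates prostaglandins. Hpgd lay between 11.63 and 11.88 with a median of 11.69 in L-GMP, at least 87.3-fold above HSC, and was also at the floor on average in normal GMP (5.27). Igf2bp3, an oncofetal RNA-binding protein, lay between 10.08 and 10.68 with a median of 10.29 in L-GMP, at least 33.5-fold above HSC. Penk, the enkephalin precursor, was between 9.35 and 11.17 with a median of 10.29 in L-GMP and at least 32.3-fold above HSC. Both stood at 5.27 in normal GMP. The eosinophil granule gene Prg3 was at least 32.5-fold and the sialic acid receptor gene Siglecf at least 26.7-fold above HSC, with Siglecf at 8.37 in normal GMP. Mycn, a MYC family transcription factor, was the sole gene of these 6 whose probe sets disagreed. The brighter probe set lay between 10.24 and 12.09 with a median of 11.34 in L-GMP with all HSC arrays at the floor, at least 61.1-fold higher. The second probe set of Mycn was at the floor on every L-GMP array and averaged 8.82 in HSC, a log2 change of -3.55 ± 0.16 that is itself a bound. No direction is given for Mycn as a gene.

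The largest falls included genes of interferon-induced membrane proteins and of stem cell regulators. Ifitm1, a membrane protein that restricts virus entry, lay between 5.47 and 6.61 with a median of 5.77 in L-GMP, against 11.91, 11.99, 11.87, 11.84 and 12.01 in HSC. The log2 change was -6.02 ± 0.19 (adjusted p = 3.2e-16), and the groups were far apart with a narrow HSC range. Its family member Ifitm3 lay between 6.74 and 7.67 with a median of 6.94 in L-GMP, against 12.04, 12.15, 12.25, 12.13 and 12.07 in HSC (-5.07 ± 0.16). Hlf, a bZIP factor that marks self-renewing stem cells, lay between 5.27 and 5.94 with a median of 5.66 in L-GMP, against 11.06, 11.10, 11.14, 11.01 and 11.08 in HSC. Its change was -5.44 ± 0.19 (adjusted p = 1.2e-15), and a second probe set was also called lower, with all L-GMP arrays at the floor. Normal GMP averaged 7.44 for Hlf, above all L-GMP arrays.

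Rgs1, a regulator of G protein signalling, lay at the floor on 5 of 6 L-GMP arrays and at 10.03, 11.23, 11.07, 11.99 and 11.57 in HSC, at least 56.3-fold lower in L-GMP. HSC array 1 was the lowest and array 4 the highest for Rgs1, in the order seen for the immediate early genes. The interferon-induced chaperone Rtp4 (at least 40.6-fold) and GTPase Iigp1 (-5.26 ± 0.17) also fell, as did the melanosome trafficking GTPase Rab38 (at least 36.8-fold) and the neuronal membrane protein Basp1 (-5.14 ± 0.24). Klf4, a zinc finger factor that drives monocyte formation, fell by 4.84 ± 0.52, lying between 5.45 and 6.50 with a median of 5.91 in L-GMP and at 9.02, 10.95, 10.92, 11.51 and 11.50 in HSC. Cd27, a TNF receptor family member on stem and lymphoid cells, was at the floor on 4 of 6 L-GMP arrays and at least 27.8-fold lower in L-GMP. The remaining large falls were the homeobox repressor Tgif2 (at least 31.5-fold), the membrane protein Tmem176b (-5.02 ± 0.13), Bex1 (at least 31.1-fold), AW112010 (-4.96 ± 0.14) and the cysteine protease inhibitor relative Ctla2b (-5.15 ± 0.18).

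Of the genes at the floor on each of the 6 L-GMP arrays, Ctla2a had the largest difference, at 12.05, 12.16, 12.07, 12.24 and 12.13 in HSC and at least 116-fold lower in L-GMP. It is a near copy of Ctla2b, so the probe sets of the pair may share signal. Dntt, the terminal transferase of immunoglobulin gene rearrangement, stood at 11.17, 11.24, 11.26, 11.02 and 11.37 in HSC and was at least 61.4-fold lower in L-GMP. Thrombin receptor F2r stood at 11.10, 11.02, 10.85, 11.04 and 11.07 in HSC and was at least 53.5-fold lower. The HSC arrays were close together for each of these genes. The branching glycosyltransferase Gcnt2 was at least 28-fold, the lymphotoxin subunit Ltb at least 27.2-fold and the endothelial and stem cell gene Myct1 at least 25.6-fold lower in L-GMP. Every normal GMP array was also at the floor for Ltb, and none passed 6.06 for Dntt or 6.56 for Gcnt2. Normal GMP arrays were all above the floor for Ctla2a (7.92 to 9.15), F2r (7.53 to 8.28) and Myct1 (6.05 to 7.46).

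**Figure D2:**
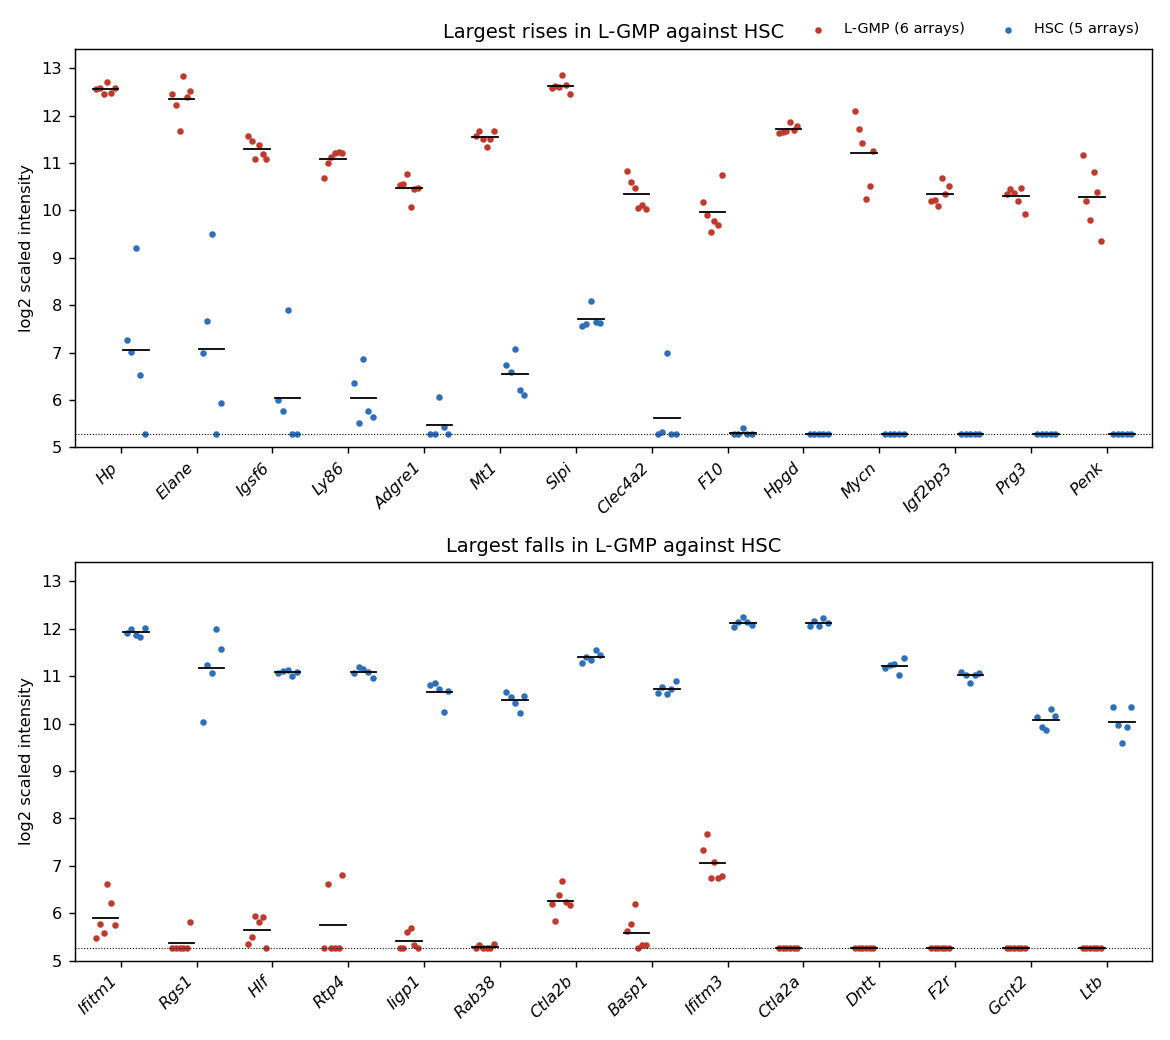
Log2 scaled intensity on each of the 6 L-GMP (red, left) and 5 HSC (blue, right) arrays for the 9 genes with the largest rises (upper panel) and falls (lower panel), each followed by 5 genes at the floor in 1 group. Points are arrays in replicate order, bars are group means and the dotted line is the floor of 5.27. The HSC point of array 3 for Hp, Elane and Igsf6 stands above the other HSC points. L-GMP and HSC points do not overlap for any gene shown, and the first 9 of each panel were chosen among genes without overlap.

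The Fc receptor genes were high in L-GMP, which were sorted as Fc receptor positive, so that level follows from the gate and is not a result. The HSC labels name no Fc receptor gate, so the gate did not set the HSC level. Fcgr3 averaged 9.65 ± 0.29 in L-GMP with all HSC arrays at the floor, and Fcgr2b 10.79 ± 0.27 in L-GMP and 7.45 ± 0.23 in HSC. Kit averaged 8.24 ± 0.20 in L-GMP and 9.69 ± 0.19 in HSC, both sorted as Kit positive. The labels give no cut-off for either gate, and the part of the sort in that difference was not tested. Cd34 was gated positive in L-GMP and not gated in HSC, and it averaged 8.08 ± 0.41 in L-GMP and 9.78 ± 0.19 in HSC. No probe set names Ly6a (Sca-1) alone. Within the lineage panel that both sorts removed, the macrophage integrin Itgam averaged 7.11 in L-GMP with HSC at the floor. Cd3e had a log2 change of -0.24 ± 0.31 and Cd4 one of -0.30 ± 0.33, neither called. Of the 5 tested genes of that panel, 2 were called higher and 1 lower, against 23.4% and 23.8% of all genes.

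The primary granule genes were mostly higher in L-GMP. Of 12 tested members, 10 rose and 2 fell, against 23.4% and 23.8% of all genes, with a median change of 1.18. Beside Elane, the membrane protein Ms4a3, a marker of GMP, rose by 4.21 ± 0.41, lying between 10.29 and 11.72 with a median of 11.17 in L-GMP and at 6.67, 7.22, 8.88, 6.18 and 5.67 in HSC. Cathepsin G (Ctsg) rose by 3.43 ± 0.31, lying between 11.84 and 12.60 with a median of 12.44 in L-GMP and at 8.85, 9.20, 10.20, 8.60 and 7.50 in HSC. For both genes HSC array 3 was the highest HSC array and still below every L-GMP array. The protease inhibitor Cst7 rose by 2.11 ± 0.16, and myeloperoxidase (Mpo), which makes hypochlorous acid, by 1.71 ± 0.26. The lysozymes Lyz1 (-0.85 ± 0.30) and Lyz2 (-0.999 ± 0.35) were the 2 members called lower. They are near copies of each other, their groups overlapped, and neither was called without HSC array 3 or without L-GMP array 3. Over the list, array means lay between 10.61 and 11.29 in L-GMP and between 9.02 and 10.17 in HSC. Those of normal GMP lay between 11.3 and 11.66, above both groups. Without HSC array 3, 10 members were higher and 0 lower.

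Elane and Prtn3, serine protease genes next to each other on chromosome 10, both rose. The 200 bases before each start are printed because C/EBP and ETS factors such as Spi1 are known to act on this cluster, and capitals mark GAGGAA, a core that ETS factors bind (both strands were searched, TTCCTC on the other). The letters are RefSeq's in GRCm38.p6, on the plus strand, and end at the base before the start.
Elane chr10:79886112-79886311: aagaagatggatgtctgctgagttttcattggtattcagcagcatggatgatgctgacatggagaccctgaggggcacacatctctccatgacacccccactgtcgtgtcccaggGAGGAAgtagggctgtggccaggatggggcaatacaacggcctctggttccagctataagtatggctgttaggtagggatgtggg
Prtn3 chr10:79879467-79879666: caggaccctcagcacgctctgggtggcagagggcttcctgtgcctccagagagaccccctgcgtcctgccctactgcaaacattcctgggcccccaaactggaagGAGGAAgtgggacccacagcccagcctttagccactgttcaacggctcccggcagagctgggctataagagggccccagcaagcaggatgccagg
The core stands once in each, with its first base at -85 in Elane and -95 in Prtn3, counted back from the start. The same 200 bases before the start held it in 19% of all RefSeq promoters, so the match describes these letters alone. The C/EBP core TTGCNNAA was also searched and is not in either stretch, and it was found in 7.47% of all windows. Prtn3 averaged 12.59 ± 0.05 in L-GMP and 11.45 ± 0.13 in HSC (SD, n = 6 and 5), a log2 change of 1.14 ± 0.16.

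Neutrophil genes moved less uniformly, with 8 of 16 tested members higher, 2 lower and 6 not called. After Hp came the leukotriene B4 receptor Ltb4r1 (3.28 ± 0.17), the peptidoglycan-binding protein Pglyrp1 (3.04 ± 0.23) and the stefin Stfa3 (at least 7.32-fold). The secondary granule marker Ltf ran the other way, lying between 5.27 and 6.76 with a median of 5.48 in L-GMP and at 8.66, 7.93, 10.40, 7.68 and 7.58 in HSC (-2.74 ± 0.61, adjusted p = 7.4e-04). Ngp, another secondary granule protein, lay between 10.08 and 12.33 with a median of 11.22 in L-GMP and at 10.77, 10.69, 11.96, 10.61 and 10.37 in HSC and was not called, with a 95% interval of the change from -0.65 to 1.28. HSC array 3 was the highest HSC array for both genes, and the L-GMP and HSC arrays of Ngp overlapped. The receptor for granulocyte colony-stimulating factor, Csf3r, was slightly lower in L-GMP (-0.41 ± 0.14), a call lost without HSC array 5 (limma adjusted p = 0.0518) and with the 3'/5' covariate (0.156). Without HSC array 3, 9 of the neutrophil genes were higher and 2 lower.

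Monocyte and macrophage genes were mostly higher in L-GMP. Of 23 tested members, 17 were higher, 2 lower and 4 not called, and without HSC array 3 the counts were 17 and 2. Beside Igsf6, Ly86 and Adgre1, the beta-glucan receptor Clec7a rose by 3.42 ± 0.34. The receptor for macrophage colony-stimulating factor, Csf1r, lay between 10.86 and 11.26 with a median of 11.14 in L-GMP and at 8.60, 8.90, 9.72, 8.79 and 8.57 in HSC (2.19 ± 0.17), with normal GMP at 11.51. Apoe, the lipid carrier of macrophages, was at the floor on every L-GMP array and averaged 8.36 in HSC, at least 8.52-fold lower in L-GMP. The lysosomal protease Ctss fell by 1.26 ± 0.20. The summed linear intensity of the list ran from 17100 to 19500 in L-GMP and from 5010 to 7220 in HSC.

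All 4 tested subunits or regulators of the phagocyte NADPH oxidase were higher, the membrane subunit Cyba by 2.31 ± 0.11, the cytosolic subunits Ncf4 by 1.80 ± 0.13 and Ncf1 by 0.87 ± 0.13, and the small GTPase Rac2 by 1.10 ± 0.14. All 4 were also higher without HSC array 3. Of 15 cathepsin and lysosome genes, 10 were higher, among them the proteases Ctsh (3.22 ± 0.22) and Ctsz (1.97 ± 0.17) and the hexosaminidase subunit Hexa (1.60 ± 0.07). The 3 lower were Ctsw (-1.74 ± 0.14), Ctss and Ctsl (-1.01 ± 0.14). Toll-like receptor genes gave 3 higher and 1 lower of 7, with Tlr1 at least 11.7-fold above HSC, where all arrays were at the floor. The endotoxin co-receptor Cd14 averaged 6.25 in L-GMP with HSC at the floor, a call lost with the 3'/5' ratio as a covariate (limma adjusted p = 0.0585), and Ly96 (MD-2) fell by 0.91 ± 0.20. Of 7 C-type lectins, 2 rose, Clec4a2 and Clec7a, and 1 fell, Clec4e (-1.25 ± 0.31). S100 genes were split, with S100a6 (-3.30 ± 0.29), S100a4 (-2.60 ± 0.25) and S100a10 (-1.60 ± 0.20) lower and S100a13 (0.66 ± 0.11) and S100a1 (0.65 ± 0.12) higher, of 9 tested.

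Eicosanoid genes, which make and sense lipid mediators from arachidonic acid, gave 4 higher and 5 lower of 12, against 23.4% and 23.8% of all genes. The higher ones were Hpgd, Ltb4r1, the leukotriene A4 hydrolase Lta4h (1.52 ± 0.11) and the 5-lipoxygenase partner Alox5ap (0.42 ± 0.11). The prostaglandin E2 receptor Ptger4 (-2.40 ± 0.16), the leukotriene C4 synthase Ltc4s (-1.20 ± 0.19) and the thromboxane synthase Tbxas1 (-1.17 ± 0.14) were lower. Mast cell, basophil and eosinophil genes rose in 5 of 7 tested members, with none lower. The histidine decarboxylase Hdc, which makes histamine, lay between 9.21 and 9.88 with a median of 9.83 in L-GMP with all HSC arrays at the floor, at least 20.9-fold higher, and normal GMP averaged 10.35. The mast cell carboxypeptidase Cpa3 rose by 3.99 ± 0.35, with normal GMP at 9.46. Prg2 lay between 9.82 and 11.66 with a median of 11.12 in L-GMP, against 6.83, 5.27, 8.72, 6.28 and 5.27 in HSC and an average of 8.94 in normal GMP. For Prg2 L-GMP array 6 was the lowest of its group and HSC array 3 the highest of its own. Its groups did not overlap, as the choice of the largest rises required. The defining eosinophil peroxidase Epx and the mast cell receptor Fcer1a were below the level filter, at 5.30 and 5.27 in L-GMP and at 5.33 and 5.34 in HSC.

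Among the transcription factors of the myeloid lineage, 7 of 10 were higher and 3 lower, and without HSC array 3 the counts were 7 and 3. Cebpd, a C/EBP factor of granulocytes and macrophages, lay between 9.52 and 10.32 with a median of 10.09 in L-GMP and at 6.36, 6.21, 7.04, 6.34 and 6.23 in HSC (3.57 ± 0.17). Irf8, which directs monocyte fate, rose by 1.64 ± 0.13, Spi1 by 1.32 ± 0.14 and Cebpb by 1.29 ± 0.27, with the groups of Cebpb overlapping. Klf4, Runx1 (-0.72 ± 0.22) and Nfe2 (-0.43 ± 0.15) were the members called lower, and the call of Nfe2 was lost without HSC array 1 or 5 or L-GMP array 4 (limma adjusted p of up to 0.0598). Klf4 is also an immediate early gene, and its HSC level followed the order of that list.

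Cytokine receptors were divided evenly, 9 higher and 9 lower of 25, against 23.4% and 23.8% of all genes. Those higher were led by Csf1r, the interferon gamma receptor Ifngr1 (1.72 ± 0.13) and the alpha chains of the GM-CSF and interleukin 3 receptors, Csf2ra (1.35 ± 0.12) and Il3ra (1.24 ± 0.17). Those lower were led by Flt3, a receptor tyrosine kinase of multipotent and lymphoid progenitors, which lay between 6.59 and 8.05 with a median of 7.68 in L-GMP and at 10.76, 11.01, 10.88, 10.79 and 11.02 in HSC (-3.45 ± 0.27, adjusted p = 5.8e-10). Flt3 did not overlap between the groups, and normal GMP averaged 7.14. The interleukin receptors Il1r1 and Il18r1 were at the floor on every L-GMP array, at least 5.09-fold and at least 3.32-fold lower, and the transforming growth factor beta receptor Tgfbr2 fell by 1.89 ± 0.13. Of 5 chemokine receptors, Ccr1 (at least 9.1-fold), Cxcr4 (1.89 ± 0.19) and Ccr2 (1.38 ± 0.21) were higher and none lower. Integrins were higher in 6 of 12, with the leukocyte beta chain Itgb2 at 2.07 ± 0.15 and Itgam at least 3.56-fold above HSC, and lower only in the platelet chain Itga2b (-0.85 ± 0.19).

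**Figure D3:**
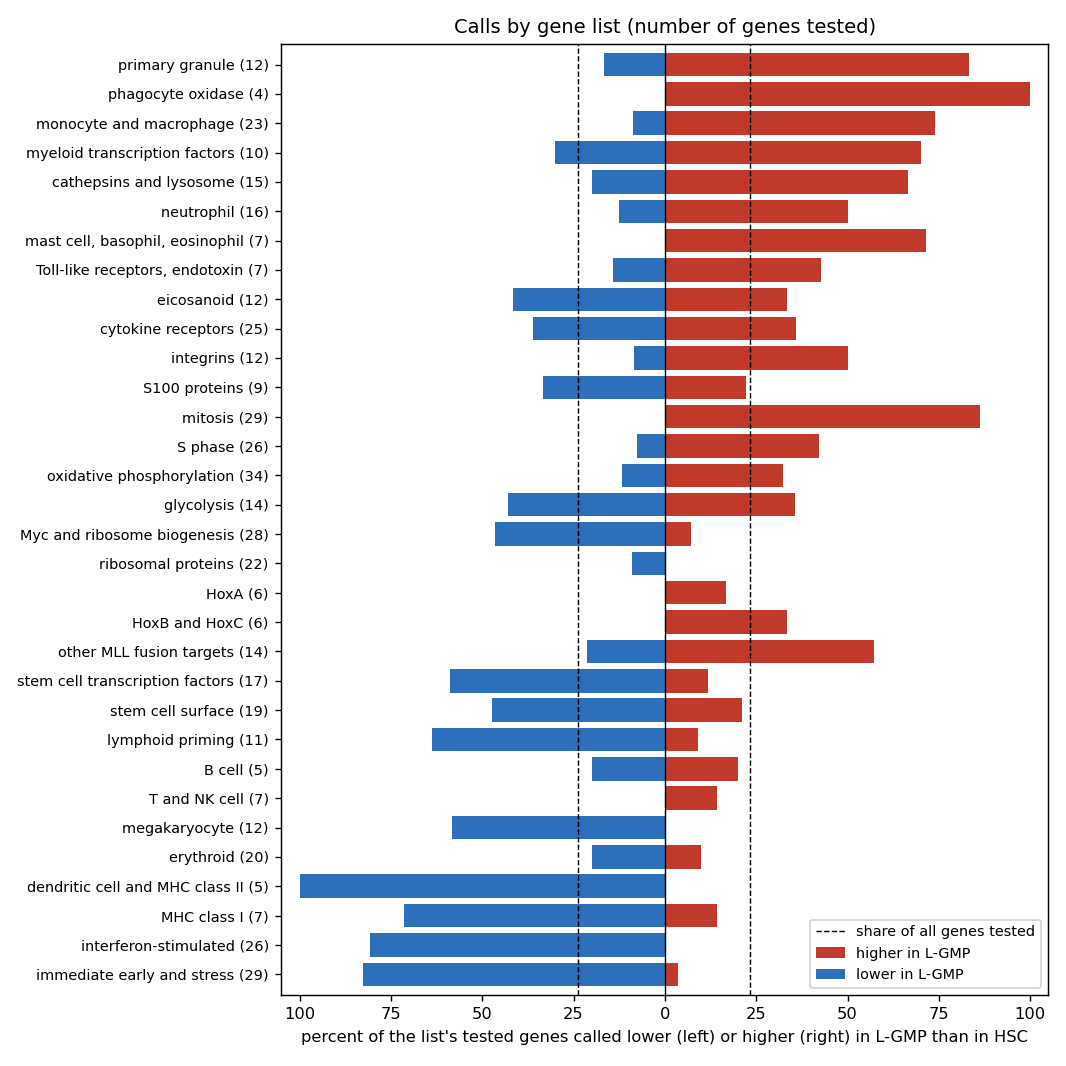
Percent of the tested genes of each of 32 gene lists that were called lower (blue, left) or higher (red, right) in L-GMP than in HSC, with the number of genes tested in brackets. Dashed lines mark the share of all genes tested called in that direction, 23.8% lower and 23.4% higher. Granule, oxidase, macrophage and mitosis lists extend to the right, and stem cell, MHC class II, interferon-stimulated and immediate early lists to the left.

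The HOX genes, homeodomain factors that hold the identity of early progenitors, had a log2 change above 0 in all 12 tested members, most of them small and not called. Array means of the HoxA list lay between 8.46 and 9.23 in L-GMP and between 8.07 and 8.42 in HSC, without overlap. Hoxa10 was the sole member whose own arrays did not overlap between the groups, and it enters these means. The gap of the means is therefore not a statement on the other members. Those of the HoxB and HoxC list lay between 7.31 and 8.16 in L-GMP and between 6.94 and 7.60 in HSC, with overlap. The changes of Hoxa9, Hoxb3, Hoxb4 and Hoxc6 were near 0 and below it in some fits without 1 array, that of Hoxa9 also with the replicate block or the 3'/5' covariate. Of 6 tested HoxA genes, 1 was higher in L-GMP and none lower. Hoxa9, the HoxA gene most tied to MLL leukaemia, lay between 10.94 and 12.000 with a median of 11.60 in L-GMP and at 11.42, 11.64, 11.52, 11.40 and 11.51 in HSC. The groups overlapped throughout, the change was 0.06 ± 0.19, and its 95% interval ran from -0.33 to 0.45, which leaves out a 2-fold difference in either direction. Normal GMP averaged 9.55 ± 0.26 (SD, n = 4), and L-GMP were 2.01 above them on the log2 scale (limma adjusted p = 9.5e-08).

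Hoxa10 was the HoxA gene called, lying between 8.44 and 9.44 with a median of 8.91 in L-GMP and at 7.70, 7.38, 7.44, 7.65 and 7.66 in HSC (1.40 ± 0.13, adjusted p = 1.1e-08). Every L-GMP array stood above every HSC array, and all 4 normal GMP arrays were at the floor. Hoxa5 lay between 9.76 and 10.83 with a median of 10.26 in L-GMP and at 9.55, 9.85, 9.86, 9.93 and 9.71 in HSC, with a 95% interval of the change from -0.05 to 1.10. Hoxa7 had an interval from 0.03 to 0.79, Hoxa3 from 0.02 to 0.70 and Hoxa11 from -0.01 to 0.84. None of these was called, and on L-GMP array 6 Hoxa3 stood at 8.14 while the other L-GMP arrays reached 7.14. Without L-GMP array 1, or with the 11 L-GMP and HSC arrays fitted alone, 3 HoxA genes were called higher. Hoxa2, Hoxa4 and Hoxa13 were at the floor on every L-GMP and HSC array. Of 6 tested HoxB and HoxC genes, Hoxb5 (0.44 ± 0.12) and Hoxc5 (0.63 ± 0.24) were called higher, both with overlapping groups. The call of Hoxc5 was lost without HSC array 1, 2 or 5 or L-GMP array 4, 5 or 6, with a limma adjusted p of up to 0.0813 and a difference down to 0.51, and with the 3'/5' covariate (0.104). Hoxb4, a gene long used to expand stem cells, differed by 0.10 ± 0.17 and was not called (95% interval -0.26 to 0.45). Hoxb3 (0.15 ± 0.30), Hoxb13 (0.30 ± 0.25) and Hoxc6 (0.07 ± 0.18) were not called either.

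The HOX cofactors differed from one another. Pbx3, a TALE homeodomain partner of HOX proteins, lay between 8.58 and 9.22 with a median of 9.13 in L-GMP, against 6.16, 5.73, 5.27, 5.52 and 5.77 in HSC (3.35 ± 0.14, adjusted p = 1.1e-14). Meis1, the other TALE partner tied to MLL leukaemia, lay between 9.56 and 9.99 with a median of 9.73 in L-GMP, against 10.65, 10.67, 10.61, 10.63 and 10.56 in HSC (-0.87 ± 0.18, adjusted p = 3.1e-04). Pbx3 was higher and Meis1 lower in L-GMP with no overlap of arrays in either case. Against normal GMP, at 5.30 ± 0.06 for Pbx3 and 7.51 ± 0.21 for Meis1 (SD, n = 4), L-GMP were higher in both, by 3.74 and 2.24 (limma adjusted p = 2.3e-14 and 7.7e-09). Pbx2 (-0.0028 ± 0.13) and Meis3 (-0.38 ± 0.16) were not called.

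**Figure D4:**
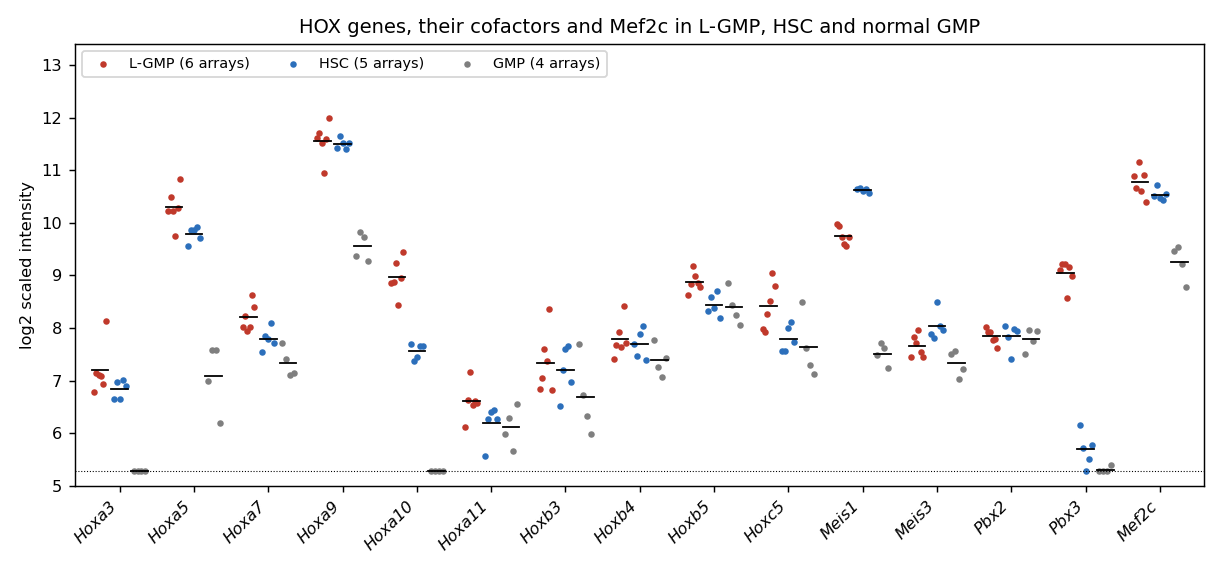
Log2 scaled intensity of HOX genes, cofactors and Mef2c on each L-GMP (red), HSC (blue) and normal GMP (grey) array, with group means as bars and the floor of 5.27 as a dotted line. The points of L-GMP and HSC overlap for Hoxa9 and for the brightest probe set of Mef2c, Hoxa10 and Pbx3 are higher and Meis1 lower in L-GMP than in HSC, and all normal GMP arrays are at the floor for Hoxa3 and Hoxa10.

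Other genes known as direct targets of MLL fusions were called higher in 8 of 14 tested members and lower in 3, where the higher ones include Mycn by its brighter probe set alone, a gene given no direction here. Apart from Igf2bp3 and the brighter probe set of Mycn, the helix-loop-helix inhibitor Id2 rose by 1.86 ± 0.30, the zinc finger factor Zeb2 by 1.36 ± 0.19 and the translation regulator Cpeb2 at least 3.04-fold. Smaller rises were called for the demethylase-family gene Jmjd1c (0.52 ± 0.13), the progenitor factor Myb (0.32 ± 0.07) and the splicing regulator Mbnl1 (0.17 ± 0.06). The call of Mbnl1 was lost without HSC array 1, 3 or 5 or L-GMP array 1 or 5, with a limma adjusted p of up to 0.112. Flt3, the HMG-box factor Sox4 and the LIM-domain protein Lmo2 (-0.34 ± 0.09) were lower. Sox4 lay between 7.64 and 8.97 with a median of 8.56 in L-GMP and at 10.77, 10.94, 10.68, 10.96 and 11.06 in HSC (-2.37 ± 0.22), and all 6 of its probe sets were called lower. Mef2c, a MADS-box factor, lay between 10.40 and 11.15 with a median of 10.77 in L-GMP and at 10.50, 10.71, 10.46, 10.43 and 10.54 in HSC by its brightest probe set, which was not called (95% interval -0.22 to 0.69), against 9.25 in normal GMP. Of its 5 probe sets 2 were called higher, by 0.55 ± 0.15 and 0.63 ± 0.14. Tcf4 (0.15 ± 0.13) and the Polycomb subunit Bmi1 (-0.22 ± 0.11) were not called by their brightest probe sets either. For Tcf4, 2 of 5 probe sets were called higher (0.47 ± 0.16 and 0.42 ± 0.14), and for Bmi1 the second was called lower (-0.63 ± 0.16).

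Of 7 tested genes of MLL, its cofactors and its fusion partners, 5 were lower and 1 higher. Kmt2a fell by 1.72 ± 0.17, and its second probe set by 1.73 ± 0.22. Mllt3 was at the floor on 5 of 6 L-GMP arrays and averaged 6.87 in HSC. Where these probe sets lie relative to the fused parts was not analysed here, so what they show of the fusion transcript was not tested. The chromatin tether Psip1 (-1.39 ± 0.13) and the elongation scaffold Aff4 (-1.17 ± 0.16) were lower, and Aff1 higher (1.19 ± 0.10).

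Stem cell transcription factors fell in 10 of 17 tested members. The 2 called higher were Id1 and, by its brighter probe set alone, Mycn, for which no direction is given. Tal1, a helix-loop-helix factor needed to form the blood system, was at the floor on every L-GMP array and at 9.35, 9.26, 8.89, 8.75 and 9.23 in HSC, at least 14.1-fold lower in L-GMP. Gfi1b, a repressor of stem cells and megakaryocytes, was at least 3.93-fold lower and the RNA-binding protein Zfp36l1 at least 9.96-fold lower. In all 3 the HSC arrays were each above the floor. Smaller falls were called for the homeobox gene Nkx2-3 (-1.31 ± 0.17), the zinc finger factor Gata2 (-0.72 ± 0.21), Runx1, Lmo2 and Tcf15 (-0.52 ± 0.20). The call of Tcf15 was lost without HSC array 3, 4 or 5 or L-GMP array 1, 4, 5 or 6, with a limma adjusted p of up to 0.15 and a difference of -0.37 without HSC array 3, and with the 3'/5' covariate (adjusted p = 0.0962). The helix-loop-helix inhibitor Id1 was higher (1.33 ± 0.28), with overlapping groups. Lyl1 (0.22 ± 0.10), Fli1 (0.52 ± 0.25) and Etv6 (-0.26 ± 0.13) were not called.

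At the stem cell surface, 9 of 19 tested genes were lower and 4 higher. Procr was at least 15.3-fold lower. The drug efflux pump Abcg2 lay at the floor on 5 of 6 L-GMP arrays and at 8.56, 8.38, 7.86, 8.13 and 8.35 in HSC, at least 7.53-fold lower, and the CD45-associated protein Ptprcap fell by 2.66 ± 0.11. Those higher were the pentaspan protein Prom1 (at least 6.16-fold), Cxcr4, the SLAM protein Cd48, which marks progenitors rather than stem cells (0.60 ± 0.11), and the anti-phagocytic ligand Cd47 (0.53 ± 0.08). Aldehyde dehydrogenases, which oxidise retinal and other aldehydes, gave 5 higher and 2 lower of 12, against 23.4% and 23.8% of all genes. Aldh3b1 was at least 10.2-fold higher and Aldh7a1 at least 6.57-fold lower.

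Markers of lymphoid, antigen-presenting, megakaryocyte, erythroid and stromal cells were mostly lower in the leukaemic cells or did not pass the test. The mast cell, basophil and eosinophil genes given above went the other way, with 5 of 7 higher. Lymphoid priming genes fell in 7 of 11 tested members. Beside Dntt, the B lineage factor Bcl11a stood at the floor on 5 of 6 L-GMP arrays and at 9.93, 10.02, 9.97, 10.12 and 10.07 in HSC, at least 26.6-fold lower, and the chromatin organiser Satb1 fell by 1.10 ± 0.29. The recombinase Rag1 alone rose (0.96 ± 0.21). All 5 tested dendritic cell and MHC class II genes were lower, led by the class II chains H2-Aa, at 10.19, 9.54, 9.48, 9.10 and 9.86 in HSC and at the floor on 5 of 6 L-GMP arrays, and H2-Eb1 (at least 13.7-fold lower). The invariant chain Cd74 averaged 5.31 in L-GMP and 7.09 in HSC. The summed intensity of this list ran from 1020 to 1470 in L-GMP and from 2610 to 4170 in HSC, and the part of antigen-presenting cells in it was not tested. Of 5 B cell genes, Cd79b rose (0.75 ± 0.14) and Cd72 fell (-1.61 ± 0.16), while Cd79a was below the level filter at 5.70 in L-GMP and 5.76 in HSC. In the T and NK cell list 1 of 7 genes was called, Cd8a (0.49 ± 0.15), a call lost with the 3'/5' covariate (limma adjusted p = 0.0593). The array means of the list overlapped between the groups, from 7.01 to 7.53 in L-GMP and from 7.06 to 7.52 in HSC.

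Megakaryocyte genes fell in 7 of 12 tested members and rose in none. After F2r came platelet factor 4 (Pf4), which lay between 5.67 and 6.38 with a median of 5.995 in L-GMP and at 9.002, 8.91, 8.85, 8.77 and 9.01 in HSC (-2.90 ± 0.44, adjusted p = 1.3e-05), the adhesion receptor Selp (at least 5.73-fold lower) and the platelet kinase substrate Plek (-0.90 ± 0.17). Most erythroid genes, 14 of 20, were not called. The nuclear protein Hemgn was at the floor on every L-GMP array and at 8.88, 8.61, 8.58, 8.36 and 8.63 in HSC, at least 10.1-fold lower. Carbonic anhydrase Car2 (-1.37 ± 0.31) and the GATA1 cofactor Zfpm1 (at least 2.41-fold) were also lower, and the blood group gene Rhd (0.95 ± 0.21) and the haem enzyme Fech (0.46 ± 0.09) higher. Stroma and endothelium genes gave 1 higher and 3 lower of 10, against 23.4% and 23.8% of all genes. The endothelial cadherin Cdh5 was below the filter and the collagen Col1a1 not called (0.06 ± 0.30).

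Interferon-stimulated genes were lower together. Of 26 tested members 21 fell and none rose, with a median change of -1.09. Array means of the list lay between 7.23 and 7.42 in L-GMP and between 8.91 and 9.03 in HSC, tight within each group and far apart. The antiviral enzyme Rsad2 (viperin) lay between 5.27 and 6.54 with a median of 5.88 in L-GMP and at 10.07, 10.38, 10.19, 10.27 and 10.20 in HSC (-4.41 ± 0.30), and the guanylate-binding protein Gbp2 fell by 3.71 ± 0.18. Normal GMP were between, with list means from 7.54 to 7.87. Ifitm2, also of that family, fell by 0.93 ± 0.10, far less than Ifitm1 and Ifitm3. MHC class I genes were lower in 5 of 7, with the heavy chain H2-K1 at -1.58 ± 0.18, the peptide transporter Tap1 at -1.19 ± 0.13 and the light chain B2m at -0.96 ± 0.12. The loading factor Tapbp was higher (0.35 ± 0.09).

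Immediate early and stress genes, which are induced within minutes of a stimulus, were lower in 24 of 29 tested members. The level in HSC depended strongly on the array. Egr1, the zinc finger factor of this response, lay between 6.56 and 10.01 with a median of 7.51 in L-GMP and at 10.21, 12.29, 12.20, 12.54 and 12.38 in HSC (-4.25 ± 0.96, adjusted p = 9.3e-04), with the highest L-GMP value on array 6 and the lowest HSC value on array 1. The phosphatase subunit Ppp1r15a fell by 4.25 ± 0.52. Gadd45b, a stress sensor, rose (1.02 ± 0.15). List means lay between 7.04 and 7.76 in L-GMP and between 8.52 and 11.03 in HSC, and between 7.15 and 9.13 in normal GMP. Array 1 was the lowest of HSC and also of normal GMP, whose other arrays lay at 8.72 or above. In normal common myeloid progenitors array 1 stood at 7.42 and the other arrays at 9.705 or above. In normal megakaryocyte-erythroid progenitors array 1, at 9.402, was not the lowest, and the other arrays stood at 9.396 and 9.73. L-GMP array 1, at 7.52, was not the lowest of its group either. Why arrays numbered 1 were low in HSC, normal GMP and common myeloid progenitors was not tested. Without HSC array 4, 23 members were lower, and without HSC array 1, 25.

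**Figure D5:**
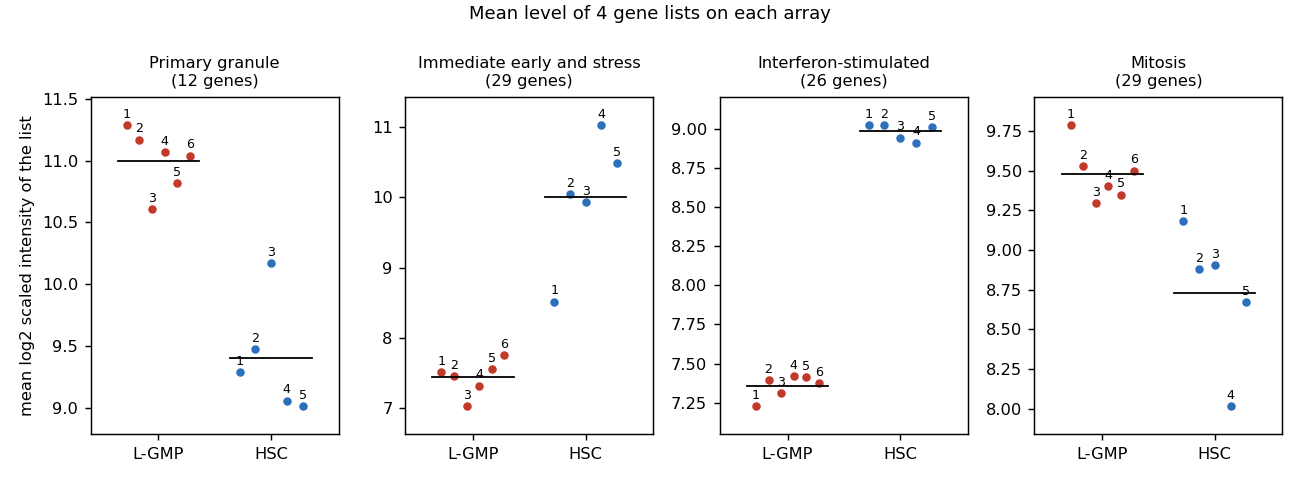
Mean log2 scaled intensity of 4 gene lists on each L-GMP (red) and HSC (blue) array, with the replicate number beside each point and the group mean as a bar. Each panel has its own vertical scale. HSC array 3 is high for the primary granule list, HSC arrays 1 and 4 lie at opposite ends for the immediate early and the mitosis lists, and the groups do not overlap in any of the 4 lists.

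Genes of mitosis were higher in the leukaemic cells, by modest amounts. Of 29 tested members 25 were higher and none lower, with a median change of 0.75, and 5 reached 2-fold. The spindle kinase Aurka lay between 8.91 and 9.76 with a median of 9.11 in L-GMP and at 8.19, 7.84, 7.85, 7.25 and 7.81 in HSC (1.43 ± 0.18). The ubiquitin-conjugating enzyme Ube2c (1.24 ± 0.23), the chromosomal passenger kinase Aurkb (1.12 ± 0.19) and the cyclin Ccnb2 (1.05 ± 0.19) followed. HSC array 4 was the lowest for Aurka, and without it 25 members were called higher and 1 lower. Without HSC array 1, 28 were higher and none lower. Normal GMP had list means from 9.22 to 9.58, overlapping those of L-GMP. S phase genes were higher in 11 and lower in 2 of 26, led by the ribonucleotide reductase subunit Rrm2 (1.47 ± 0.18), the replication factor Cdc45 (1.25 ± 0.20) and the cyclin Ccne2 (1.10 ± 0.12). These counts were 9 and 3 without HSC array 4.

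Promoters of mitosis genes are shown since these genes moved together, and mitotic genes are known to carry the cell cycle homology region (CHR) and CCAAT boxes. The 150 bases before the start, 5' to 3' on the gene's strand, are RefSeq's in GRCm38.p6, with CCAAT (or ATTGG, the same box on the other strand) and the CHR letters TTTGAA (or TTCAAA) in capitals.
Aurka chr2:172370571-172370720 (minus): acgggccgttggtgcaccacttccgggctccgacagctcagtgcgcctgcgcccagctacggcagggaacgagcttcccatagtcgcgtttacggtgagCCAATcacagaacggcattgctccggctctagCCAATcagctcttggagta
Ube2c chr2:164769779-164769928 (plus): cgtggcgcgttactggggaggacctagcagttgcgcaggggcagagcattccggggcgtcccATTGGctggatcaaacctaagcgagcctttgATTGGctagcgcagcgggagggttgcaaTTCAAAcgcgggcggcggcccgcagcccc
Ccnb2 chr9:70421555-70421704 (minus): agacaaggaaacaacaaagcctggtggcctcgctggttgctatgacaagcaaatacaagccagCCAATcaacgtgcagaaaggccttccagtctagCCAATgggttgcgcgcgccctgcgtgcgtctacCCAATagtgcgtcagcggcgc
Plk1 chr7:122159285-122159434 (plus): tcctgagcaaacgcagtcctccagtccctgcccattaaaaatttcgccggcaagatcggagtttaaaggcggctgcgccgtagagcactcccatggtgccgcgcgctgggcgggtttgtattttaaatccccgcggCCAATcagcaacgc
Cenpa chr5:30666736-30666885 (plus): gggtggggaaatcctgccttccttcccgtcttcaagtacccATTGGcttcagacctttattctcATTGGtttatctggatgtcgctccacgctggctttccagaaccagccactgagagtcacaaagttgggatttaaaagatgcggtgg
Each of the 5 holds a CCAAT box and Ube2c the CHR letters as well. Over the list, 25 tested members had a promoter in the RefSeq table, and 22 of them held CCAAT and 10 the CHR letters within 250 bases before a start. By window the shares were 88.9% and 40.7%, where 33.8% and 16% of all 32851 RefSeq promoter windows held them. These are matches of letters and not binding sites. The polo kinase Plk1 rose by 0.98 ± 0.27 and the centromere histone Cenpa by 0.95 ± 0.12.

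The D cyclins, which carry growth signals into the cell cycle, changed in different directions. Ccnd2 lay between 5.46 and 7.07 with a median of 6.53 in L-GMP and at 10.93, 11.04, 10.94, 10.89 and 11.07 in HSC (-4.54 ± 0.18, adjusted p = 9.6e-15), with normal GMP at 10.43, above every L-GMP array. Ccnd1 was at the floor on every L-GMP array, at least 6.74-fold lower. Ccnd3 was higher, lying between 8.16 and 9.02 with a median of 8.42 in L-GMP and at 7.37, 7.25, 7.34, 7.39 and 7.37 in HSC (1.19 ± 0.15). Their kinase Cdk4 was slightly lower (-0.41 ± 0.10). Of 9 kinase inhibitors and RB family genes, the inhibitor Cdkn2c rose by 2.05 ± 0.25, Rb1 by 1.18 ± 0.13 and Cdkn2d by 0.31 ± 0.09, and none fell. The call of Cdkn2d was lost with the 3'/5' covariate (limma adjusted p = 0.0529).

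Ribosome biogenesis genes, the classic targets of Myc, were lower in 13 and higher in 2 of 28 tested members, none by 2-fold. Myc itself fell by 0.79 ± 0.09, lying between 8.80 and 9.04 with a median of 8.86 in L-GMP and at 9.76, 9.92, 9.77, 9.50 and 9.49 in HSC without overlap. Nucleolin (Ncl) differed by -0.54 ± 0.15, the nucleolar GTPase Gnl3 by -0.49 ± 0.08 and the processing factor Bop1, one of those higher, by 0.51 ± 0.13. Ribosomal protein genes were lower in 2 of 22, Rps6 (-0.59 ± 0.11) and Rpl14 (-0.77 ± 0.13), and 5 when all probe sets of a gene were averaged.

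Glycolysis genes gave 5 higher and 6 lower of 14, against 23.4% and 23.8% of all genes. The mutase Pgam1 rose by 1.34 ± 0.11, and the glucose transporter Slc2a3, lying between 5.35 and 6.36 with a median of 5.81 in L-GMP and at 9.05, 9.14, 8.94, 9.43 and 9.43 in HSC, fell by 3.43 ± 0.17. Slc2a1, the other tested transporter, fell by 0.88 ± 0.21, and the aldolase Aldoc by 1.92 ± 0.21. Genes of oxidative phosphorylation were higher in 11 and lower in 4 of 34, against the same shares of all genes, and none by 2-fold. Among them were the complex I subunit Ndufb7 (0.63 ± 0.08) and the complex II subunits Sdhd (0.60 ± 0.10) and Sdha (-0.52 ± 0.10). In serine and one-carbon metabolism, Phgdh, the first enzyme of serine synthesis, lay between 7.29 and 8.95 with a median of 7.99 in L-GMP, against 11.39, 11.51, 11.48, 11.47 and 11.59 in HSC (-3.38 ± 0.20) and an average of 11.67 in normal GMP. Phgdh was lower in L-GMP than in both normal groups (limma adjusted p = 4.9e-11 against GMP). The mitochondrial folate enzyme Mthfd2 (1.34 ± 0.15) and the asparagine synthetase Asns (1.08 ± 0.29) were higher.

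Among 13 BCL2 family genes, 4 were called higher, 1 lower and 8 neither, where 23.4% and 23.8% of all genes were called higher and lower. The death-promoting members Pmaip1 (at least 6.72-fold), Bak1 (1.43 ± 0.23), Bid (1.42 ± 0.11) and Bad (0.50 ± 0.07) were higher, and the survival protein Mcl1 lower (-0.97 ± 0.22) with overlapping groups. In the Wnt pathway 3 of 9 tested genes were lower, Dvl1 (-0.90 ± 0.10), Apc (-0.52 ± 0.14) and beta-catenin Ctnnb1 (-0.51 ± 0.06), and none higher, a share not far from that of all genes. Foxo3, a forkhead factor of stem cell quiescence, fell by 1.93 ± 0.14 with its brightest probe set and by 1.70 ± 0.12 with the second, while the remaining one rose by 1.83 ± 0.56. Cpd, carboxypeptidase D, likewise had 1 probe set called lower (-0.35 ± 0.10) and 2 called higher. Probe sets called in opposite directions occurred in 91 of the 2578 genes with several kept probe sets.

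Genes that lie next to each other and both changed at least 4-fold numbered 21 pairs in the RefSeq gene order, and 17 of these changed in the same direction. They included the Fc receptor genes Fcgr2b, Fcgr4 and Fcgr3, Prg2 with Prg3, Ifitm1 with Ifitm3, and H2-Aa with H2-Eb1. Pairs of related genes can share probe signal, and no comparison with other gene pairs was made.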

How the data were processed

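Mouse bone marrow RNA from about 10000 sorted cells per sample was amplified, labelled and measured on 1-colour expression arrays, per the labels' protocols. The authors deposited a linear intensity for each probe set, computed by MAS5 per the submitters' processing notes, whose version is not given in the sources used here. The 6 arrays of transduced cells were left out, since the series' design text calls the experiments noncomparable. The other 22 arrays were scaled to a common mean after trimming 2% at each end, set to a floor at their 25th percentile and taken to log2. Scaling removes any difference in total RNA per cell. Probe sets were kept when they passed the median of all values on at least 3 arrays and named 1 gene in the platform annotation, and the brightest probe set stood for a gene. One linear model over all 22 arrays was fitted with lmFit and eBayes of limma 3.58.1, run in R 4.3.3, giving two-sided tests with Benjamini-Hochberg adjustment over 8422 genes. The script was tested on simulated data with known changes.

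Groups came from the sample titles. The members of the comparison and the gene lists were chosen with earlier results of these data known. Genes to name were listed by rule: the 15 largest rises and falls with groups apart, the 6 largest bounds in each direction, up to 4 called members of each list in each direction, every tested member of the HOX, cofactor, MLL target, sort marker, lineage and stem cell factor lists, defining markers, and 3 genes with conflicting probe sets. The rule listed 263 genes. Not all of them are named in the text, and some genes outside the rule are named too. Alternatives to scaling, floor, filter, probe set choice, arrays fitted, variance prior, replicate block and RNA length were tried. Promoter sequences are RefSeq's (GRCm38.p6). The files name no genome build, so no position is given for probe sets.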

Additional observations from a re-analysis of the deposited data

Results flagged for a closer look

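Within each group, an array was noted when its distance from the nearest other array, over the whole range of the group, passed the 95% limit of Dixon's test. Of 480 groups of values, 59 held such an array. The 480 include groups with every array at the floor, which have no range and could hold none. Chance gives about 1 in 20 for values that are not tied, a rate that does not hold where arrays tie at the floor. Values are levels on the log2 scale. In part of the 59 groups all other arrays lay at the floor, so that any value above it stood out. In L-GMP these were Abcg2 (5.70), Bcl11a (5.37), Bex1 (6.07), Cd74 (5.51), H2-Aa (6.38), H2-Eb1 (6.27), Igkv8-30 (5.71), Mllt3 (5.89), Rgs1 (5.82), Selp (5.31) and Tgif2 (6.75). In HSC these were Aldh3b1 (5.56), Dram1 (5.94), F10 (5.42), Fcgr4 (5.28), Gpc1 (5.29), Lrg1 (7.06) and Stfa3 (5.53) on array 3 and Cpeb2 (5.77) on array 4.

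Where some of the other arrays of a group lay above the floor, HSC array 3 was noted most often. It stood above the other HSC arrays for Adgre1 (6.07), Ccr2 (8.05), Cebpd (7.04), Clec4a2 (6.999), Csf1r (9.72) and Igsf6 (7.91), and for Itgb2 (9.70), Ncf4 (9.61), Ngp (11.96), Prom1 (6.52) and Slpi (8.09). It stood below them for Bex1 (10.09) and Csf3r (7.66). HSC array 4 stood below the others for Cdc45 (7.10), Foxo3 (11.05), Iigp1 (10.25), Plk1 (7.39) and Rrm2 (8.73) and above the others for Id1 (7.23). HSC array 1 stood below the others for Egr1 (10.21), Hoxa11 (5.57) and Klf4 (9.02) and above the others for Gdpd3 (5.69). HSC array 2 stood below the others for Fli1 (7.51). HSC array 5 stood above the others for Bak1 (7.07). For Adgre1, Clec4a2, Prom1 and Gdpd3 most of the other HSC arrays lay at the floor, so a small value above it could stand out.

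L-GMP arrays were noted for few genes each. Array 6 stood below the others for Lyl1 (10.91) and above the others for Egr1 (10.01), Hoxa3 (8.14) and Pmaip1 (9.22). Array 5 stood below the others for Kmt2d (5.27, the floor). It stood above the others for Cd27 (5.53, with most others at the floor) and Mbnl1 (11.75). Array 4 stood below the others for Lmo2 (11.04) and Pbx3 (8.58) and above the others for Alox5ap (12.23) and Cd48 (9.18). Array 3 stood below the others for Mpo (11.54) and above the others for Cebpb (10.20). Array 2 stood below the others for Cdkn2d (7.64). Array 1 stood below the others for Sox4 (7.64).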

How the results depend on the processing

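The counts of genes called were computed under 12 other settings and without each of the 11 arrays in turn, and every count stayed within 1.5 times of its value in the report. Genes called higher in L-GMP numbered 1698 to 2120 over the other settings and 1832 to 1962 without 1 array. Genes called lower numbered 1731 to 2197 and 1843 to 2002. Those at least 2-fold higher numbered 386 to 531 and 500 to 544, and those at least 2-fold lower 467 to 694 and 635 to 680, with the fewest under a filter on the mean over all 22 arrays or a floor at the 50th percentile. Without further scaling, 43.8% of the called genes were higher in L-GMP, against 49.5% in the report. With the 3'/5' ratio as a covariate, 3607 genes were called, and of the genes named Cd14, Cd8a, Cdkn2d, Csf3r, Hoxc5, Lrg1 and Tcf15 lost their call (adjusted p from 0.0529 to 0.156), while Hoxa11 and Meis3 gained one. Same-numbered L-GMP and HSC arrays correlated above 0.1 after removal of group means in 3 of 5 pairs (r from -0.223 to 0.446 across genes). Differently numbered L-GMP and HSC arrays also passed 0.1 in some pairs, such as L-GMP array 5 with HSC array 4 (r = 0.42). Over all groups of the 22 arrays, 18 of 37 same-numbered pairs passed 0.1, and differently numbered pairs of all groups were not counted. These counts therefore show no pairing by themselves. For the immediate early list, array 1 was the lowest of HSC, of normal GMP and of common myeloid progenitors, though not of megakaryocyte-erythroid progenitors or L-GMP. The main fit did not take the numbers as pairs, and whether they mark samples handled together was not tested. With the replicate number as a block, 1925 genes were higher in L-GMP and 2000 were lower, and of the genes named in the text, Hoxc5 and Mbnl1 lost their call.

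Of 5480 recomputed values for the 240 genes named, 5395 kept their side of the threshold and, where called, their direction, and 3 reversed. Cpd came to 0.72 with the mean of all its probe sets. Mycn came to -4.84 with the floor at the 10th percentile, where its other probe set was the brighter one. Kmt2d, not called over all arrays at -0.35, lay between -0.51 and 0.31 without 1 array, the highest without L-GMP array 5 (limma adjusted p = 0.0233). Without 1 array, 8 genes gained a call (Bmi1, Etv6, Hoxa3, Hoxa7, Hoxa11, Igkv8-30, Lyl1 and Meis3) and the following lost one. Tcf15 lost it without HSC arrays 3, 4 or 5 or L-GMP arrays 1, 4, 5 or 6, and Hoxc5 without HSC arrays 1, 2 or 5 or L-GMP arrays 4, 5 or 6. Mbnl1 lost it without HSC arrays 1, 3 or 5 or L-GMP arrays 1 or 5, Nfe2 without HSC arrays 1 or 5 or L-GMP array 4, and Csf3r without HSC array 5. Lyz1 and Lyz2 lost it without L-GMP array 3 or HSC array 3, Lyz1 also without L-GMP array 5, and Lrg1 without L-GMP arrays 1, 2 or 4 or HSC arrays 1, 2, 4 or 5. A floor at the 50th percentile ended the calls of 10 genes with low levels, among them Slamf1, Cd14, Cd74, Mllt3 and Zfpm1. The cause of the other changes was not tested. Over lists, counts moved by over 1.5 times for Toll-like receptors (5 higher with no filter, 1 with the filter on the mean), and under that filter for eicosanoid genes (3 lower), other MLL targets (5 higher), stem cell surface genes (5 lower) and aldehyde dehydrogenases (3 higher). Sign changes where neither value was called are not counted as reversed. The number of arrays and the nearness of low values to background limit the precision.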

Other observations

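Some genes varied widely within a group, and they were chosen after their values were seen. The clock gene Arntl2 stood at 10.86, 9.995, 5.27, 5.27, 5.27 and 9.46 on L-GMP arrays 1 to 6, and at 9.09, 7.17, 5.27, 5.27 and 5.27 on HSC arrays 1 to 5. In both groups arrays 1 and 2 lay well above the floor and arrays 3, 4 and 5 at it. Whether the shared replicate numbers reflect a shared origin was not tested. Spats2l lay at 9.57, 9.50, 6.49, 7.33, 5.27 and 10.14 on the L-GMP arrays, while all 5 HSC arrays were at the floor. Lrg1, a secreted glycoprotein of neutrophil granules, lay at 9.48, 8.44, 5.42, 7.96, 6.13 and 5.76 on the L-GMP arrays, and in HSC stood above the floor on array 3 alone, at 7.06. The histone methyltransferase gene Kmt2d was at the floor on L-GMP array 5 and between 9.12 and 9.41 on the other L-GMP arrays, against 8.79 to 9.09 in HSC. Gpr50 ran from the floor to 10.17 among the L-GMP arrays and from 7.26 to 9.05 among the HSC arrays.

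The plasma cell genes Jchain and Igkv8-30 were seen in the HSC group on arrays 1 and 5. Jchain was at the floor on each of the 6 L-GMP arrays, and at 9.33 on HSC array 1 and 7.79 on HSC array 5, with the other HSC arrays at the floor. Igkv8-30, an immunoglobulin light chain segment, reached 5.71 in L-GMP, against 9.35 on HSC array 1 and 7.76 on HSC array 5, with the other HSC arrays between 5.27 and 5.58. The array with the most of these transcripts was also the HSC array with the lowest immediate early and the highest mitosis genes, and whether the observations are linked was not tested.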
